A study of Mus musculus with 4 samples.

Results

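The erythropoietin receptor gene and 8 other genes for receptor chains of hematopoietic cytokines were compared between MEL and ES-EP cells. The genes were Epor, Csf2rb, Csf2rb2, Csf2ra, Il3ra, Csf3r, Il2rg, Il6st and Ghr, chosen by name as receptors of the erythropoietin, interleukin-3, GM-CSF, G-CSF, interleukin-6 and growth hormone type. A gene was taken where the array's gene table paired a probe set with its symbol alone, and its probe set with the highest mean signal over all arrays was used. This gave 8 of the 9 genes, among 19938 genes measured in all. Each of the 8 had 1 such probe set, and Il2rg, the common gamma chain, had none and was not analysed here. MEL are murine erythroleukemia cells, a transformed line of clone DS19, here stably carrying a fusion of GATA-1 with the estrogen receptor ligand domain and grown in serum with puromycin. ES-EP cells are erythroid progenitors, not transformed, that were derived from mouse embryonic stem cells and were grown in serum-free StemPro34 with erythropoietin, hIGF-1, dexamethasone and stem cell factor. RNA of 2 proliferating cultures of each was hybridized to 1 Affymetrix mouse gene array per culture. The MEL cells are 1 clone, and cell type, transformation and medium changed together, so they cannot be told apart. In these bulk samples, fewer cells of a type and less RNA per cell cannot be told apart either.

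Receptors of this family have no kinase of their own. The ligand brings chains together in the membrane, Janus kinases held at their inner tails phosphorylate each other and the tails, and STAT proteins recruited there enter the nucleus. Epor works as a pair of identical chains and is needed for the survival of erythroid progenitors. Csf2rb is the beta common chain of the receptors for interleukin-3, GM-CSF and interleukin-5, and Csf2rb2 is a closely similar mouse chain used for interleukin-3 only. Their specific partners are the alpha chains Csf2ra, Il3ra and Il5ra. Il6st encodes gp130, the chain shared by the interleukin-6 type receptors. Csf3r and Ghr, like Epor, pair with themselves.

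The promoters of 4 of the genes are shown because they stand for the 3 outcomes that follow: Epor, which did not pass the test, Csf2rb2 and Csf2ra, which were higher in ES-EP, and Il6st, which was higher in MEL. The sequences are from RefSeq on GRCm38.p6 and run 5′ to 3′ on the strand of the gene, from 250 bases before the start to 50 bases after it. Capitals mark 3 motifs, each searched on both strands. AGATAA, which appears as TTATCT when it lies on the opposite strand, is read by GATA factors. GAGGAA, which then appears as TTCCTC, is a core read by ETS factors such as PU.1. CCACCC, which then appears as GGGTGG, is read by Krüppel-type factors. No copy of 1 motif overlapped a copy of another. The Epor window is chr9:21963527-21963826 on the minus strand, that of Csf2rb2 is chr15:78305672-78305971 on the minus strand, that of Csf2ra is chr19:61228369-61228668 on the minus strand and that of Il6st is chr13:112463820-112464119 on the plus strand.
Epor: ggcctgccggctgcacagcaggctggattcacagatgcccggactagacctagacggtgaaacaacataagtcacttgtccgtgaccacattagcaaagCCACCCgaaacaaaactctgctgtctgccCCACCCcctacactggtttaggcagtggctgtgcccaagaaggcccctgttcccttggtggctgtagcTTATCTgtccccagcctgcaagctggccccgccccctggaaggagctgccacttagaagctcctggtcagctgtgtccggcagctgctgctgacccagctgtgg
Csf2rb2: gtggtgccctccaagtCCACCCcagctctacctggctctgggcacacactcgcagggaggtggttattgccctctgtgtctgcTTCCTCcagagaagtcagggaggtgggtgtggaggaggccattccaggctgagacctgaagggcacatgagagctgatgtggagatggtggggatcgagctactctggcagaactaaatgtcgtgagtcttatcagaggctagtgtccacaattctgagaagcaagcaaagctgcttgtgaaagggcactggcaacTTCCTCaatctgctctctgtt
Csf2ra: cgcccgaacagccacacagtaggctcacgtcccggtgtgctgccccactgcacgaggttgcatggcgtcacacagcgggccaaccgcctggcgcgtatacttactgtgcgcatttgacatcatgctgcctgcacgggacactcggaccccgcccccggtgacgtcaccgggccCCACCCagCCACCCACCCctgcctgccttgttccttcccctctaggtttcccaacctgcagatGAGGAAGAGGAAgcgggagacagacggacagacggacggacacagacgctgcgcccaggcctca
Il6st: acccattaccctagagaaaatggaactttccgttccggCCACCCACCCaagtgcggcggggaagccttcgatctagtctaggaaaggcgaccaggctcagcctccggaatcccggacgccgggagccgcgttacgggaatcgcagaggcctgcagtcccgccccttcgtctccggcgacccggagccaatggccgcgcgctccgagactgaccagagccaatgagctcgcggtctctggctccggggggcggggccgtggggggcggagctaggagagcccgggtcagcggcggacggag

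The Epor window held 1 AGATAA, as TTATCT, whose first letter lay 54 bases before the start, and 2 copies of CCACCC, 151 and 122 bases before it. None of the other promoters searched, those of Csf2rb2, Csf2ra, Il3ra, Csf3r, Il6st and Ghr, held AGATAA. Other spellings of a GATA site were not searched. Csf2rb2 held 2 copies of GAGGAA, 1 of them after the start, and Csf2ra held 2 that followed each other directly, 14 and 8 bases before the start. A copy of GAGGAA also lay in the window of Csf3r and in 1 of the 2 windows of Ghr. Neither gene passed the test as higher in ES-EP. The window of Il3ra, which was higher in ES-EP, held no copy, so this motif did not follow the outcomes. The Il6st window held only 2 overlapping copies of CCACCC. That motif was found in at least 1 window of every gene searched, with 3 copies in Csf2ra, so it did not separate the outcomes either. Among all 32851 promoters of this length, 11.2% held AGATAA, 28.3% GAGGAA and 31.5% CCACCC on either strand. A match describes the letters in the window and is not a measured binding site.

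Values are log2 signals, and a difference is MEL minus ES-EP on that scale with its standard error (SE) from limma. A gene was called where the p adjusted over all genes by Benjamini-Hochberg was under 0.05. A background level came from the olfactory receptor genes, which neither cell type is known to use. Of their 1027 genes on the array, 95% lay below 5.19 in MEL and below 5.56 in ES-EP, and these values are called the olfactory level. Of the 8 receptor genes, 6 were called, 2 of them higher and 4 lower in MEL, with a median difference of −0.41. Of the 2 higher, Ghr lay under the olfactory level in MEL and ES-EP alike, so among genes above the level in at least 1 cell type the split was 1 higher to 4 lower. The calls were common on these arrays: 63.8% of all genes were called, 20.5% higher and 43.2% lower in MEL, and the median difference of all genes was −0.15. With 2-fold or more, 1 receptor gene was higher in MEL (Il6st) and 2 were lower (Csf2rb and Csf2rb2), against 5.72% and 4.27% of all genes. In 6 of the 8 genes the MEL and ES-EP arrays did not overlap, which held for 81.8% of all genes. The share of called genes was thus near that of all genes, and the sizes of the differences carry the description. Csf2rb2 had 50 and Csf2rb 149 of the 19938 genes with a lower difference, and Il6st had 247 with a higher one, the last as measured against an ES-EP signal under the olfactory level.

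**Figure D1:**
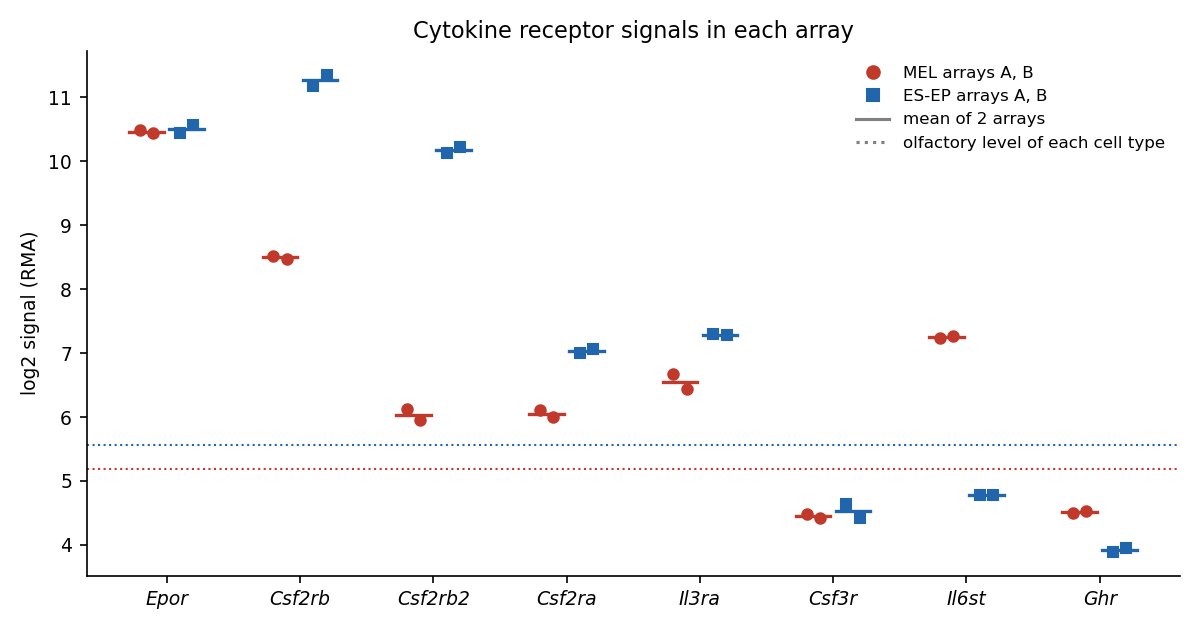
Log2 signal of the 8 measured receptor genes (vertical axis) in each of the 4 arrays, with MEL as red circles, ES-EP as blue squares, the mean of 2 arrays as a bar and the olfactory level of each cell type as a dotted line in its color. Epor lay between 10.44 and 10.58 in all arrays, Csf2rb and Csf2rb2 were higher in both ES-EP arrays, Il6st was higher in both MEL arrays, and Csf3r and Ghr lay under both dotted lines.

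Epor, the receptor for the hormone that per the labels was added to the ES-EP medium only, gave 10.49 and 10.44 in the MEL arrays and 10.44 and 10.58 in the ES-EP arrays. The groups overlapped, and every array was far above the olfactory level. The difference was −0.04 ± 0.08 (SE, n = 2 and 2 arrays; limma adjusted p = 0.687). Its 95% interval ran from −0.23 to 0.15, that is from 1.17-fold lower to 1.11-fold higher in MEL. Differences of a larger size lay outside this interval, which holds for the deposited scaling only. After quantile normalization, median centring or cyclic loess the sign turned, to 0.02, 0.11 and 0.02, again without a call. The message of Epo itself was not called (0.06, adjusted p = 0.570) and lay under the olfactory level in MEL and ES-EP alike, at 4.33 and 4.26 in MEL against 4.31 and 4.17 in ES-EP.

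The beta chains were the receptor genes with the lowest differences. Csf2rb gave 8.52 and 8.47 in MEL against 11.18 and 11.36 in ES-EP. Both ES-EP arrays lay above both MEL arrays, and all 4 were above the olfactory level. The difference was −2.77 ± 0.09 (SE; adjusted p = 1.05e-09), a signal 6.83-fold higher in ES-EP with a 95% interval of 5.96 to 7.83. Csf2rb2 gave 6.13 and 5.95 in MEL against 10.13 and 10.22 in ES-EP. Here the MEL arrays were within 1 log2 unit of the olfactory level, while the ES-EP arrays were well above it. The difference was −4.14 ± 0.09 (SE; adjusted p = 6.51e-11), 17.6-fold higher in ES-EP with an interval of 15.3 to 20.2, so that the MEL signal was 5.68% of that in ES-EP, against 14.6% for Csf2rb. The drop differed between the chains: Csf2rb minus Csf2rb2 within an array was 2.39 and 2.52 in MEL against 1.05 and 1.14 in ES-EP. This quantity changed by 1.36 between cell types with no overlap, and an exact two-sided permutation test gave p = 0.333, the smallest that 2 against 2 arrays allow. The genes are similar in sequence, and whether probes of one also read the other was not tested.

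The alpha chains that join the beta chains were lower in MEL too, by less. Csf2ra, which binds GM-CSF, gave 6.10 and 6.00 in MEL against 7.00 and 7.07 in ES-EP, a difference of −0.98 ± 0.08 (SE; adjusted p = 3.02e-06) or 1.98-fold. Il3ra, which binds interleukin-3, gave 6.67 and 6.44 in MEL against 7.29 and 7.28 in ES-EP, a difference of −0.73 ± 0.09 (SE; adjusted p = 6.98e-05) or 1.66-fold. For both genes the ES-EP arrays lay above the MEL arrays, and all arrays were above the olfactory level. With Holm's adjustment in place of Benjamini-Hochberg the call of Il3ra was lost (adjusted p = 0.209). Il5ra, the interleukin-5 chain, gave 4.09 and 4.13 in MEL against 5.20 and 5.19 in ES-EP (difference −1.09, adjusted p = 8.43e-07), under the olfactory level in MEL and ES-EP alike. The ligands Csf2 and Il3 were not called, with differences of −0.02 and 0.13, and Il5 was called at −0.42. Signals of all 3 ligands were under the olfactory level in MEL and ES-EP alike.

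Most markers of mast cells and basophils, which also carry beta chains, were lower in MEL too. Of 12 such markers measured, 10 were lower in MEL and none was higher, against 43.2% and 20.5% of all genes. Of the 6 above the olfactory level in at least 1 cell type, 5 were lower and none was higher. The summed signal of the 12 on the linear scale was 541 and 518 in MEL against 3711 and 3465 in ES-EP. Most of the ES-EP sum came from Ms4a2, the beta chain of the high-affinity IgE receptor, at 4.08 and 3.83 in MEL against 11.15 and 10.96 in ES-EP. Hdc, the enzyme that makes histamine, and the transcription factor gene Gata2 were also lower in MEL, with differences of −1.97 and −2.16. Of the 12 markers, 6 were under the olfactory level in MEL and ES-EP alike, namely Fcer1a, Cpa3, Cma1, Mcpt4, Mcpt8 and Tpsab1, with Fcer1a at 3.91 and 3.91 in MEL against 3.95 and 4.07 in ES-EP. The tryptase gene Tpsb2 was above the level in both cell types and lower in MEL, at means of 5.32 in MEL against 5.74 in ES-EP, and Mitf was likewise lower in MEL (−0.50). Prss34 was above the level in MEL only, at 5.36, and was not called. The part of such cells in the beta chain signals was not tested. Most erythroid markers were lower in MEL too. Of 8 measured, 7 were lower and 1, Gata1, was higher in MEL (1.14), and each was above the olfactory level in both cell types. The MEL cells carry a fusion of GATA-1, and whether the Gata1 probe set also read its message was not tested. The lower markers included Klf1 (−0.65), Tfrc (−0.78), Ermap (−0.79) and Rhag (−0.71). Slc4a1, the band 3 anion exchanger, differed by −5.47, Epb42, a protein of the red cell membrane skeleton, by −3.22 and Alas2, the first enzyme of erythroid heme synthesis, by −3.12. Their part in the beta chain signals was not tested either.

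**Figure D2:**
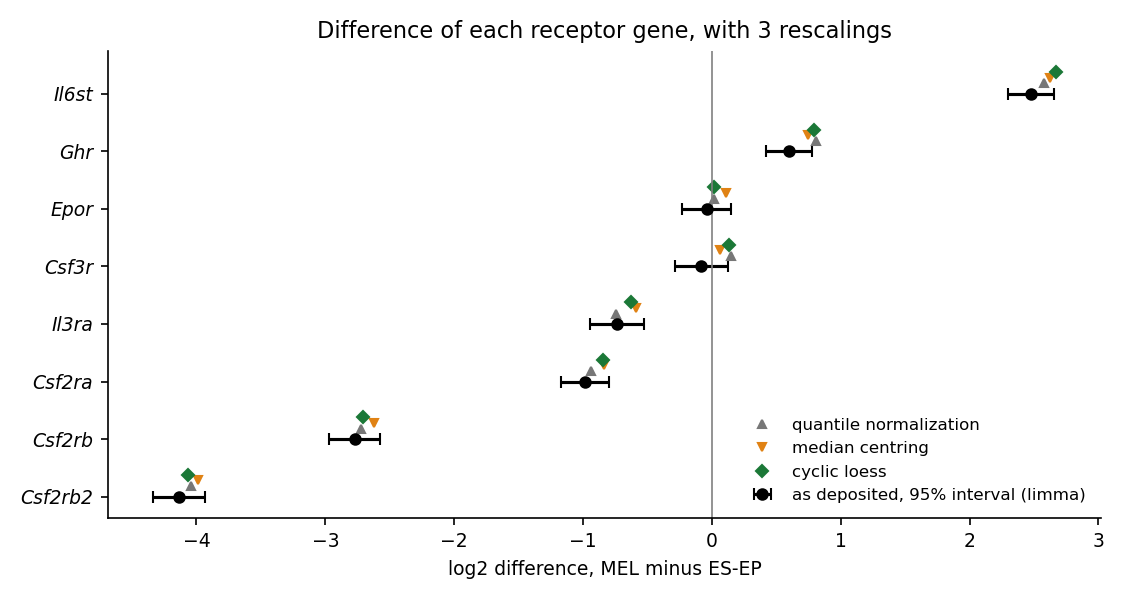
Difference of each receptor gene on the log2 scale (horizontal axis, MEL minus ES-EP), as black points with the 95% interval from limma, and the same difference after quantile normalization, median centring and cyclic loess as small marks. The values of Csf2rb2, Csf2rb, Csf2ra, Il3ra, Il6st and Ghr stayed on 1 side of 0 under each rescaling, and those of Epor and Csf3r crossed it.

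Il6st went the other way. It gave 7.24 and 7.27 in MEL against 4.77 and 4.79 in ES-EP, and the groups did not overlap. The difference was 2.48 ± 0.08 (SE; adjusted p = 1.04e-09), 5.57-fold higher in MEL. Since the ES-EP signal lay below the olfactory level, a lower bound on the fold was set against the ES-EP level. MEL was 3.24-fold above that level. The chains that join gp130 did not follow a single direction, though the 1 above the olfactory level that went the other way lay near it. Il27ra, its partner in the interleukin-27 receptor, gave 8.94 and 8.92 in MEL against 7.18 and 7.28 in ES-EP (1.70, adjusted p = 2.93e-08). Il6ra, which binds interleukin-6, gave 6.56 and 6.45 in MEL against 5.94 and 5.94 in ES-EP (0.56, adjusted p = 0.000180). Both were thus higher in MEL and above the olfactory level in both cell types. Cntfr, the chain for ciliary neurotrophic factor, was lower in MEL (−0.63) but near the olfactory level. It gave 5.16, under the level, and 5.38 in MEL against 5.90 and 5.89 in ES-EP. Lifr and Osmr were under the olfactory level in MEL and ES-EP alike.

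Of the ligands that signal through gp130, Osm, which encodes oncostatin M, had the lowest difference. Osm gave 6.35 and 6.30 in MEL against 8.70 and 8.75 in ES-EP (−2.40, adjusted p = 1.51e-09). Ctf1, which encodes cardiotrophin-1, gave 6.12 and 6.05 in MEL against 4.54 and 4.71 in ES-EP (1.46, adjusted p = 1.92e-07), with ES-EP below the olfactory level. Il11 and Ctf2 were the reverse, below the level in MEL and above it in ES-EP, with differences of −1.06 and −0.61. The ES-EP mean of Ctf2 was 5.59, close to the ES-EP level of 5.56. Bounds against the olfactory level were 1.44-fold for Ctf1, 1.56-fold for Il11 and 1.31-fold for Ctf2. Il6 was below the olfactory level in every array, the highest value being 3.01.

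**Figure D3:**
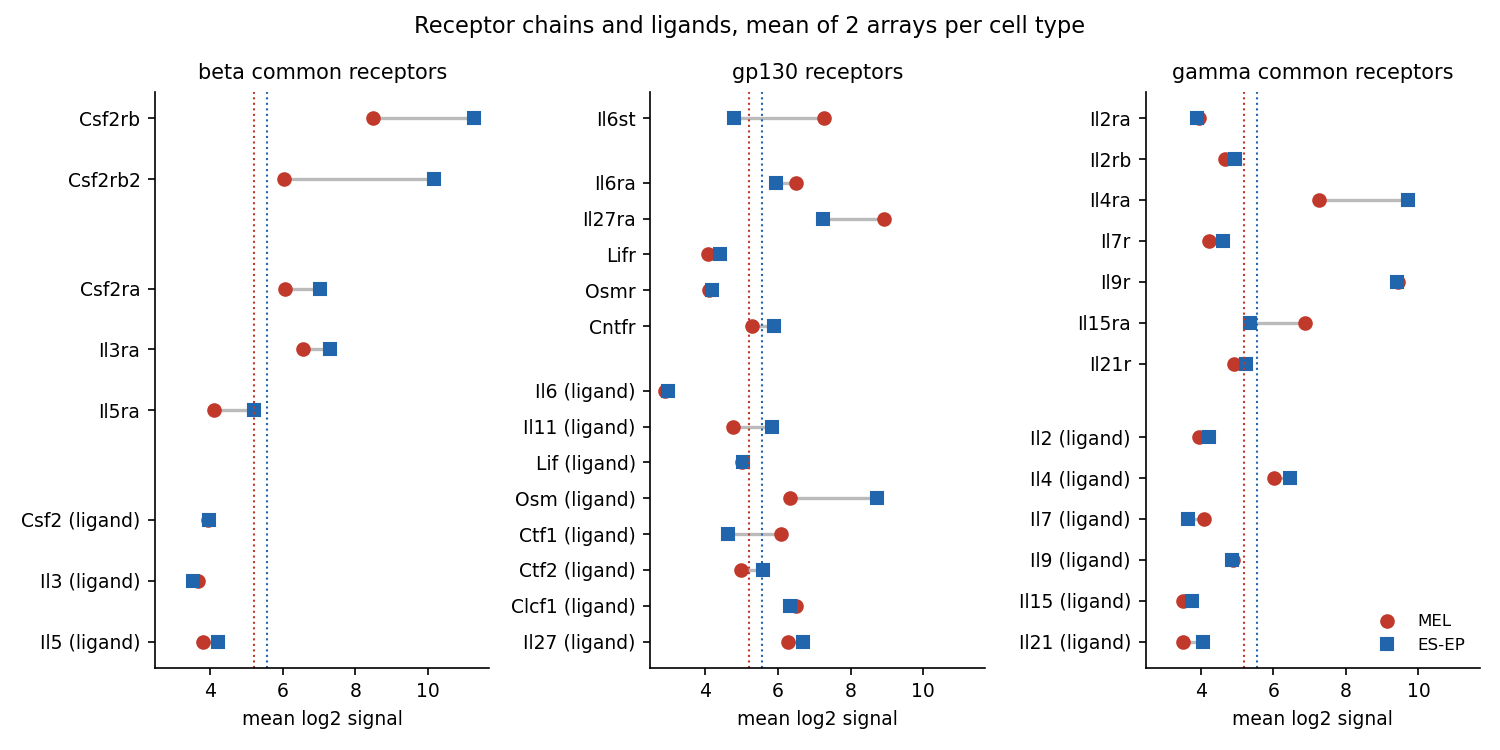
Mean log2 signal of 2 arrays (horizontal axis) of the shared chains, their partner chains and their ligands for the beta common, gp130 and gamma common receptors, with MEL as red circles, ES-EP as blue squares and the olfactory level of each cell type as a dotted line in its color. Csf2rb, Csf2rb2, Csf2ra and Il3ra lay to the right in ES-EP, Il6st, Il6ra and Il27ra lay to the right in MEL, and the signals of Il9r coincided.

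Csf3r and Ghr lay under the olfactory level in MEL and ES-EP alike, so no direction is given for them. Csf3r, the G-CSF receptor of granulocytes, gave 4.47 and 4.42 in MEL against 4.63 and 4.42 in ES-EP. The difference was −0.08 ± 0.09 (SE; adjusted p = 0.458), and its interval ran from −0.29 to 0.12. Ghr, the growth hormone receptor, gave 4.50 and 4.53 in MEL against 3.89 and 3.95 in ES-EP. It passed the test (0.60 ± 0.08, SE; adjusted p = 9.33e-05), and 48.9% of the olfactory receptor genes did so as well.

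The gamma common chain Il2rg was not analysed here, but 7 of the chains that join it were measured. Il4ra, which binds interleukin-4, gave 7.31 and 7.21 in MEL against 9.65 and 9.80 in ES-EP. Its difference of −2.46 (adjusted p = 2.44e-09) made it 5.52-fold higher in ES-EP. Il9r, the interleukin-9 receptor, gave 9.51 and 9.38 in MEL against 9.33 and 9.50 in ES-EP, and the groups overlapped (0.03, adjusted p = 0.818). Il15ra, which presents interleukin-15, gave 6.94 and 6.79 in MEL against 5.34 and 5.40 in ES-EP, the latter below the olfactory level (1.50, adjusted p = 1.28e-07). Il2ra, Il2rb, Il7r and Il21r were under the olfactory level in MEL and ES-EP alike.

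A list of 27 other type I receptor genes, which includes these partner chains, had 22 measured. Of these, 3 were higher and 14 lower in MEL, 5 were not called, and the median difference was −0.31. The share called was 77.3%, against 63.8% of all genes, of which 20.5% were higher and 43.2% lower. Under the olfactory level in both MEL and ES-EP were 12 of the 22, and among the remaining 10 the split was 3 higher to 6 lower. The split moved with the scaling, to 5 higher and 8 lower after quantile normalization, 4 and 9 after median centring and 4 and 8 after cyclic loess. All genes moved likewise, from 4096 higher and 8622 lower to 5344 and 5974, 5757 and 5644, and 5676 and 5460. Crlf3, a little-studied member of the family, was lower in MEL (−0.77), as was Il12rb2, a chain of the interleukin-12 receptor (−0.76).

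Of 22 ligands of the receptors 21 were measured, with 2 higher, 10 lower and 9 not called, and a median of −0.08. The share called was 57.1%, against 63.8% of all genes, of which 20.5% were higher and 43.2% lower. The split of the ligands became 6 to 6, 4 to 6 and 7 to 6 under quantile normalization, median centring and cyclic loess. Under the olfactory level in both MEL and ES-EP were 12 of the 21. Of those named for their size, Il21 (−0.56) and Il7 (0.43) lay among these 12.

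Behind the receptors, 16 of 33 measured kinases, adaptors and attenuators were higher in MEL, 8 were lower and 9 were not called, with a median difference of 0.18. The share called was 72.7%, against 63.8% of all genes, of which 20.5% were higher and 43.2% lower. After quantile normalization the split was 19 to 8, after median centring 23 to 7 and after cyclic loess 21 to 8. The share of higher genes among those called was 66.7% as deposited and 70.4%, 76.7% and 72.4% under these rescalings. That of all genes went from 32.2% to 47.2%, 50.5% and 51.0%. All 33 lay above the olfactory level in at least 1 cell type, unlike many of all genes. Among all 13117 genes above it, 3762 were higher and 5247 lower in MEL as deposited. Jak2, the kinase bound by Epor and the beta chains, gave 10.72 and 10.72 in MEL against 10.01 and 10.16 in ES-EP (0.64, adjusted p = 9.73e-05). Its call was lost with Holm's adjustment (adjusted p = 0.309). Ptprc, the phosphatase CD45, gave 7.78 and 7.91 in MEL against 4.51 and 4.89 in ES-EP, a difference of 3.14 (adjusted p = 4.04e-09). ES-EP lay below its olfactory level, and MEL was 4.88-fold above that level. Dok2, an adaptor that restrains kinase signaling, and Tec, a cytoplasmic kinase, were higher in MEL by 2.41 and 2.28. The docking protein genes Gab2 and Gab1 were lower in MEL, with differences of −2.39 and −1.39, as was Plaur, the urokinase receptor (−1.52). Jak3 and Lyn had no probe set of their own name and were not analysed here.

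**Figure D4:**
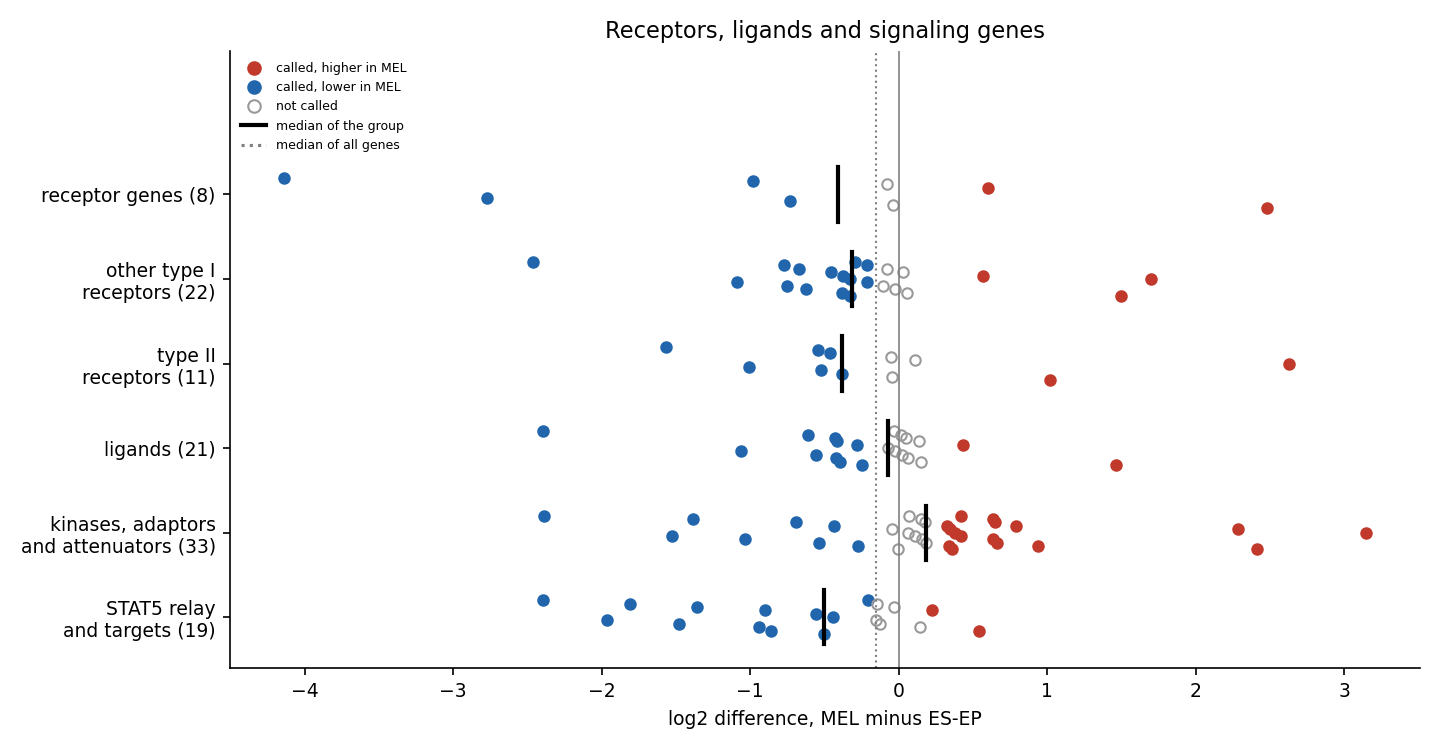
Difference on the log2 scale (horizontal axis, MEL minus ES-EP) of every measured gene in 6 groups, red where called higher and blue where called lower in MEL and open where not called, with the median of each group as a black bar and that of all genes as a dotted line. The median was 0.18 for kinases, adaptors and attenuators and −0.50 for the STAT5 relay and its targets; the vertical spread within a group has no meaning.

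Of 19 measured genes of the STAT5 relay and its known targets, 2 were higher and 12 lower in MEL, 5 were not called, and the median difference was −0.50. The share called, 73.7%, stood against 63.8% of all genes, of which 43.2% were lower and 20.5% higher. The split was 2 to 11 after quantile normalization, 3 to 11 after median centring and 2 to 11 after cyclic loess. All 19 lay above the olfactory level in both cell types. The relay genes differed little: Stat5a gave 9.69 and 9.67 in MEL against 9.42 and 9.50 in ES-EP (0.22, adjusted p = 0.0333), and Stat5b gave 8.92 and 8.84 in MEL against 8.90 and 9.10 in ES-EP (−0.12, adjusted p = 0.260). The call of Stat5a was lost on leaving out MEL A, MEL B or ES-EP A (adjusted p = 0.132, 0.102 and 0.126), with Holm's adjustment, with all probe sets tested together and against a 1.2-fold difference. Cish, an inhibitor that STAT5 induces and that acts back on the receptor, gave 7.49 and 7.34 in MEL against 9.17 and 9.28 in ES-EP (−1.81, adjusted p = 3.41e-08). Bcl2l1, which encodes the survival protein Bcl-xL, gave 7.06 and 6.95 in MEL against 8.88 and 9.05 in ES-EP (−1.96, adjusted p = 1.97e-08). Osm, also a STAT5 target, was described above, and Id1 (−1.48), Spry1 (−1.36) and Erfe, the erythroid hormone gene erythroferrone (−0.94), were lower in MEL as well. Erythropoietin was added to the ES-EP medium only, and the part of the medium in these differences was not tested.

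The genes next to the receptors on the chromosomes did not share the size of their differences. Over the 3 measured genes on either side of each receptor, in RefSeq order, there were 38 distinct neighbors. Of these, 10 were higher and 17 lower in MEL, with a median of −0.10 and a range of −1.76 to 1.66. Of all genes, 20.5% were higher and 43.2% lower, with a median of −0.15. Csf2rb and Csf2rb2 are themselves adjacent on chromosome 15. Their other neighbors ranged from −0.83 to 1.40, among them Tst, a mitochondrial sulfurtransferase gene higher in MEL (1.40). The 6 neighbors of Il6st ranged from −1.76 to −0.02 while Il6st was at 2.48, and that at −1.76 was Map3k1, a kinase gene. Il31ra, a receptor gene related to Il6st and next to it, gave 4.35 and 4.28 in MEL against 4.36 and 4.31 in ES-EP, all under the olfactory level. The neighbors of Epor ranged from −0.63 to 0.85, with 2 higher and 3 lower. A 2-fold difference or more was seen in 4 neighbors, Tst, Map3k1, Grik3 beside Csf3r (−1.09) and Selenop beside Ghr (1.66). The means of Selenop in ES-EP and of Grik3 in MEL lay under the olfactory level, and the brighter cell type was 1.03-fold and 2.02-fold above that level.

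**Figure D5:**
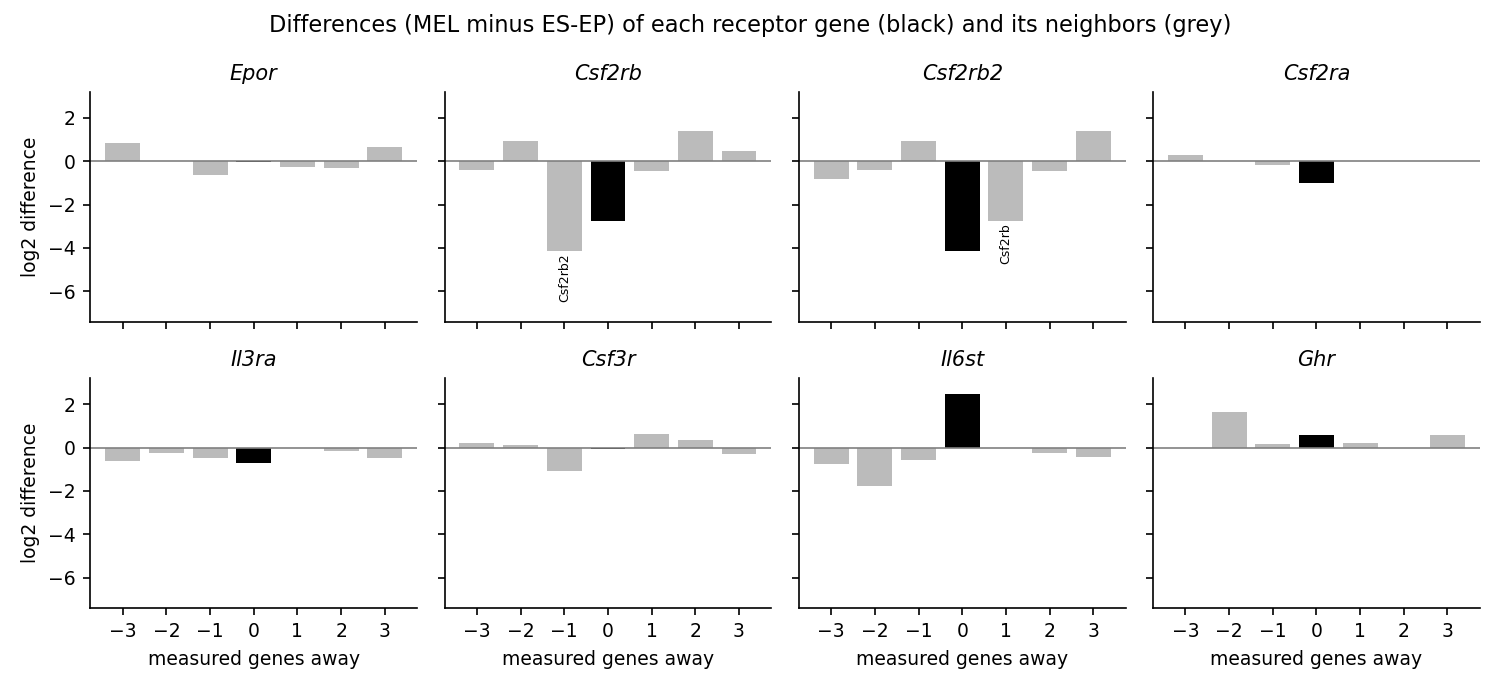
Difference on the log2 scale (vertical axis, MEL minus ES-EP) of each receptor gene in black and of up to 3 measured genes on either side in grey, by their place along the chromosome (horizontal axis, in genes). The bars of Csf2rb and Csf2rb2 stand side by side at −2.77 and −4.14, and the grey bars around Il6st lie below 0.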

How the data were processed

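The 4 arrays comprised 2 of MEL and 2 of ES-EP cells, 1 per culture, grouped by the labels. The values are log2 signals that, per the labels, the authors normalized by RMA in GeneSpring GX before they deposited them (version not given in the sources used here; the submitters' notes name mm9). Detection calls were not used here, and the small number of arrays limits the precision. Of 35557 probe sets, 21789 were paired with a single symbol, 1621 with several and 12147 with none; 21698 matched a current RefSeq gene. For each of 19938 genes the brightest probe set was tested two-sided with limma 3.58.1 in R 4.3.3 (lmFit and eBayes, 2 residual and 8.196 prior degrees of freedom), with Benjamini-Hochberg adjustment over all genes. Nothing in the labels pairs arrays A and B across cell types, and same-lettered arrays did not deviate together (r = −0.0357). The p-values measure the spread between cultures of 1 line or derivation. Array medians were 5.685 and 5.672 in MEL against 5.813 and 5.842 in ES-EP, and the arrays of a cell type correlated at 0.9983 and 0.998 over genes.

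All receptor genes were named. From each list the text names up to 6 called genes with the largest differences plus Jak2, Stat5a and Stat5b, of the neighbors those at 1 or more on the log2 scale, and other partner chains and ligands by their textbook pairing. The members and lists were chosen with earlier results of these data known. The bound against the olfactory level is the mean of the brighter cell type over the olfactory level of the other. Promoters were matched by symbol for Epor, Csf2rb2, Csf2ra, Il3ra, Csf3r, Il6st and Ghr. The alternatives were quantile normalization, median centring, cyclic loess, filters on mean signal at its median or 25th percentile, a gene's probe sets averaged, all probe sets in 1 test, a replicate block, robust eBayes with a trend, a 1.2-fold minimum in the test, Holm's adjustment and the omission of each array in turn. The scripts were tested on simulated data. Python 3.11.15, pandas 2.3.3, numpy 2.4.6, scipy 1.17.1 and matplotlib 3.10.9 were used for the remaining steps.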

Additional observations from a re-analysis of the deposited data

How the results depend on the processing

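Across 15 alternatives Csf2rb ranged from −2.86 to −2.62, Csf2rb2 from −4.23 to −3.99, Csf2ra from −1.04 to −0.83 and Il3ra from −0.85 to −0.59, and the only lost call among these was that of Il3ra with Holm's adjustment (adjusted p = 0.209). Il6st ranged from 2.46 to 2.67 over the 14 alternatives that kept it and was called in each, and Ghr from 0.57 to 0.81 over 13, not called with Holm's adjustment (adjusted p = 0.294). Epor was not called under any alternative. Its difference turned positive after quantile normalization (0.0203), median centring (0.107) and cyclic loess (0.0173), and ranged from −0.109 to 0.0260 on leaving out each array, positive only without ES-EP B. Csf3r turned to 0.147, 0.0668 and 0.134 under the same rescalings and ranged from −0.187 to 0.0228 on leaving out each array. Stat5b turned to 0.0247 after median centring. The median difference over all genes, −0.15 as deposited, became −0.03, −0.01 and −0.00 under these rescalings.

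The receptor genes higher in MEL numbered 0 with the filter at the median of mean signal, 1 with that at the 25th percentile, 1 with Holm's adjustment and 1 among genes above the olfactory level in at least 1 cell type, an alternative chosen after seeing the data. The 2 filters removed Csf3r and Ghr, and that at the median Il6st too. On leaving out each array the counts stayed at 2 higher and 4 lower. Called genes of the other type I receptors fell from 17 to 8 and to 11 with the filter at the median, then that at the 25th percentile, 6 with Holm's adjustment and 9 against a 1.2-fold difference. Those of the type II receptors fell from 8 to 5 with the filter at the median and 4 with Holm's adjustment, and those of the ligands from 12 to 3, 7, 3 and 5 in the order given for the type I receptors. Those of the kinases, adaptors and attenuators fell from 24 to 9 with Holm's adjustment and 15 against a 1.2-fold difference, and those of the STAT5 relay and targets from 14 to 6 with Holm's adjustment. With a replicate block, Epor was −0.04 (adjusted p = 0.742), 2 receptor genes were higher and 4 lower, and no receptor gene changed its call.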

Other observations

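The type II receptors, which serve interferons and the interleukin-10 family through the same kinases, were not part of the comparisons above. All 11 genes listed were measured, 2 were higher and 6 lower in MEL, 3 were not called, and the median difference was −0.39. The share called was 72.7%, against 63.8% of all genes, of which 20.5% were higher and 43.2% lower. The chains of the interleukin-10 receptor differed in opposite directions. Il10ra, which binds interleukin-10, gave 6.71 and 6.83 in MEL against 4.19 and 4.09 in ES-EP (2.63, adjusted p = 1.18e-09). ES-EP lay below its olfactory level, and MEL was 2.32-fold above that level. Il10rb, the chain it shares with related receptors, gave 8.41 and 8.36 in MEL against 9.90 and 9.99 in ES-EP (−1.57, adjusted p = 5.37e-08). Ifnar2, a chain of the type I interferon receptor, gave 8.67 and 8.60 in MEL against 9.66 and 9.64 in ES-EP (−1.01), and Il20rb was lower in MEL as well (−0.52). Il20ra (1.02) and Ifnlr1 (−0.54) were called but lay under the olfactory level in MEL and ES-EP alike.

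Markers of other cell types were counted in the same way, and the same shares of all genes apply. Of 6 megakaryocyte markers measured, 5 were higher and 1 lower in MEL, with a summed linear signal of 1735 and 1651 in MEL against 559 and 581 in ES-EP. Of 17 neutrophil and monocyte markers, 2 were higher and 8 lower, with sums of 772 and 758 in MEL against 645 and 656 in ES-EP. Among the 5 of these above the olfactory level in at least 1 cell type, 2 were higher and 1 was lower in MEL. Of 5 B cell markers, none was higher and 3 were lower, of 7 T and NK cell markers 1 was higher and 1 lower, and of 7 embryonic stem cell markers none was higher and 4 were lower. Most of these markers lay under the olfactory level in MEL and ES-EP alike: 12 of the 17 neutrophil and monocyte markers, 3 of the 5 B cell, 5 of the 7 T and NK cell and 6 of the 7 embryonic stem cell markers, but 1 of the 6 megakaryocyte markers.

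The pattern of a gene over the 4 arrays was compared with that of every other gene by the Euclidean distance between log2 signals centred on each gene's mean, a description over 4 arrays. Closest to Epor were Enkd1 (0.0126), Ptar1 (0.0131) and Fam207a (0.0147), and 1032 genes lay within a distance of 0.1. Closest to Csf2rb2 were Clca3a1 (0.0255), Pla2g4c (0.0938) and Gdpd3 (0.118), with 2 genes within 0.1. Closest to Il6st were Fam110c (0.0319), Hcls1 (0.0499), a substrate of kinases in blood cells, and Tmem106c (0.0526), with 10 genes within 0.1.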
